A study of Drosophila melanogaster with 3 samples.

Results

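The genes described are the nuclear genes of oxidative phosphorylation in Drosophila, and the question is where the protein CG11504 sat at their start sites in embryos. Members were taken by symbol from the annotation: ND- for complex I, UQCR- for complex III, COX followed by a digit for complex IV and ATPsyn for ATP synthase. The rule found 80 of 13945 protein-coding genes, with 40 in complex I, 9 in complex III, 16 in complex IV and 15 in ATP synthase. The samples form 1 group, with 3 replicates that the labels call biological. Each is of whole fly embryos collected at 0 to 18 h, with both sexes mixed, from a transgenic line that carries CG11504 fused at its C-terminal end to GFP. Chromatin was sonicated to 200 to 800 bp and precipitated through the GFP tag (ChIP-seq). All samples carry the tagged protein, and no untagged line was analysed here, so peaks that other GFP lines would share cannot be told apart from those of CG11504. Tissues were not separated, embryos have no adult testis, and no expression values were used. The sequencing depth is unknown and the peak signal has no stated scale, so peaks were compared by their rank within a list, with rank 1 the strongest.

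Oxidative phosphorylation takes place in the inner mitochondrial membrane. Complexes I, III and IV pass electrons from NADH to oxygen and pump protons, and ATP synthase uses the returning protons to make ATP. Most subunits are encoded in the nucleus and the rest in mitochondrial DNA, which was not part of this gene set. Fly genomes also hold duplicates of many nuclear subunits whose symbols end in L and which are known mainly from the male germ line.

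A gene was called bound when a peak summit of the list thresholded on the irreproducible discovery rate (IDR, a measure of how well peak ranks repeat between replicates) lay within 500 bp of one of its annotated start sites. By this rule 18 of the 80 genes were bound (22.5%, 95% exact binomial interval 13.9 to 33.2), against 22.9% of all protein-coding genes. The 80 genes found by the rule thus had peaks about as often as all protein-coding genes, with a wide interval. Their share pools 16 of 59 main genes (27.1%) and 2 of 21 duplicates of testis type (9.52%). It leaves out genes with other symbols. Of these, complex II was bound at 2 of 6, and other subunits with cytochrome c at 6 of 10. In the strongest 10650 peaks of replicates 1, 2 and 3, 21, 16 and 24 of the 80 genes were bound, against 25%, 23.2% and 25.1% of all genes. The replicate mean was 25.4% ± 5.05 (SD, n = 3) for the 80 genes and 24.5% ± 1.10 for all protein-coding genes, so the difference lay within the spread between replicates. In the whole list of 30000 peaks called on the pooled replicates the count was 21 (26.2%, against 30.4% of all genes). As a reference, 30 of 73 genes of the mitochondrial ribosome (41.1%) and 9 of 48 proteasome genes (18.8%) were bound. No test was run on these counts, because the gene set was proposed with results of these data known.

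**Figure D1:**
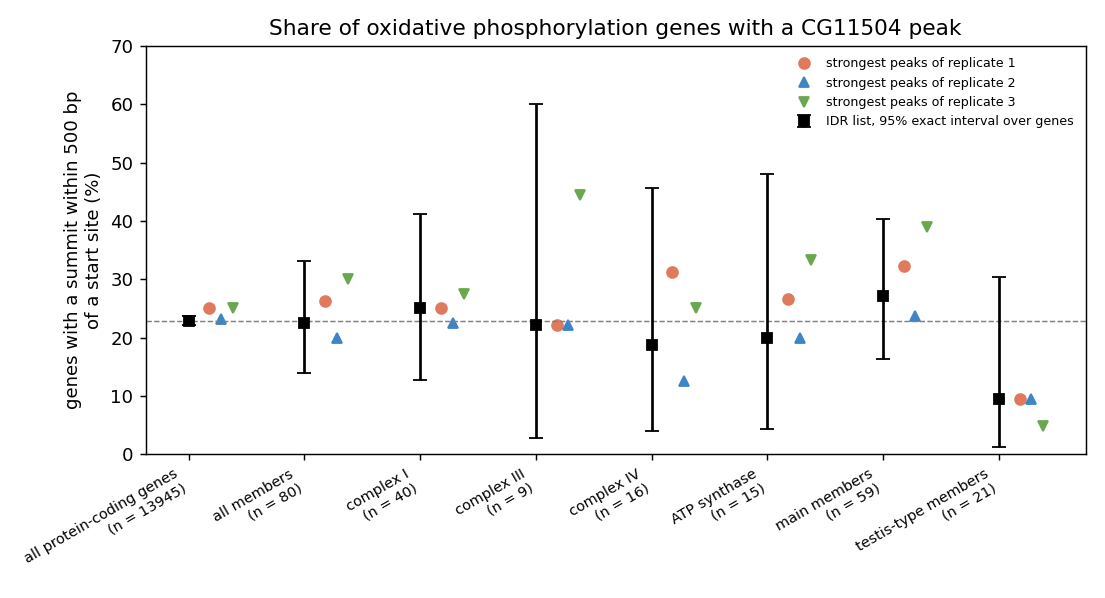
Share of genes (vertical axis, %) with a summit within 500 bp of a start site, for all protein-coding genes, the 80 genes, the 4 complexes, and main and testis-type genes. Squares with bars are the IDR list with 95% exact intervals over genes, coloured points are the strongest 10650 peaks of each replicate, and the dashed line is the 22.9% of all protein-coding genes. Testis-type genes are lowest, at 9.52%. The intervals of all 4 complexes, and those of main and testis-type genes, include the dashed line.

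The bound genes fell in all 4 complexes. Complex I had 10 of 40 (25%, 12.7 to 41.2), complex III 2 of 9 (22.2%, 2.81 to 60.0), complex IV 3 of 16 (18.8%, 4.05 to 45.6) and ATP synthase 3 of 15 (20%, 4.33 to 48.1). These intervals overlap throughout, and they cover counting error only. The replicate means were 25% ± 2.5, 29.6% ± 12.8, 22.9% ± 9.55 and 26.7% ± 6.67 (SD, n = 3) in the same order, and among the 3 smaller complexes complex III was highest in replicates 2 and 3 and complex IV in replicate 1. Bound complex I genes were ND-18, ND-ASHI, ND-MWFE, ND-42, ND-SGDH, ND-MNLL, ND-39, ND-B22, ND-B14.5B and ND-B8. In complex III they were UQCR-Q and UQCR-6.4L, in complex IV COX5B, COX7C and COX7AL2, and in ATP synthase ATPsynCF6, ATPsynD and ATPsynC.

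Sequence around the summit is shown for the bound gene with the best ranked nearest summit in each complex, and for ND-39, whose second summit was the strongest found in the window of any of the 80 genes. Bases within 50 bp of the summit are printed 5′ to 3′ on the gene's strand, with the longest run of A and T in capitals (dm6 coordinates, NCBI reference genome). The window of ND-18 is chrX:19492190-19492290, forward strand, between genes. That of UQCR-6.4L is chr3L:16566284-16566384, forward, in an intron of Mipp1. That of COX5B is chr2L:6557537-6557637, forward, between genes. That of ATPsynCF6 is chr3R:23356145-23356245, reverse, between genes, and that of ND-39 is chr3L:20491710-20491810, forward.
ND-18: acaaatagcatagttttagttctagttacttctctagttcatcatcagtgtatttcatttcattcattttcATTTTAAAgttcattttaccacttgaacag
UQCR-6.4L: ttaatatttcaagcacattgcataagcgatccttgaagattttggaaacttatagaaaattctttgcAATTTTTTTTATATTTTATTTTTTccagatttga
COX5B: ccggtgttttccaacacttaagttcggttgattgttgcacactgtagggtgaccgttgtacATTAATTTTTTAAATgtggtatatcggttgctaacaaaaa
ATPsynCF6: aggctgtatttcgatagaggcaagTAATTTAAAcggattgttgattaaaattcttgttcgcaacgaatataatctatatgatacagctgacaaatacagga
ND-39: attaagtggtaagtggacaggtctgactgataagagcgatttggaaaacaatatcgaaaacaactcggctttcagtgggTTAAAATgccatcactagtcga

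The longest run of A and T was 24 bases at UQCR-6.4L, 15 at COX5B, 9 at ATPsynCF6, 8 at ND-18 and 7 at ND-39. G and C made up 27.7% of the window at ND-18, 23.8% at UQCR-6.4L, 37.6% at COX5B, 32.7% at ATPsynCF6 and 40.6% at the ND-39 summit. Over the nearest summits of all 18 bound genes the mean was 33.4%, with a range from 14.9% at ND-42 to 45.5% at ATPsynD and COX7C. All 3478 IDR summits near a start site had a mean of 35.2%.

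Complex I, the entry point of electrons from NADH, held the strongest peaks. ND-39 (chr3L:20492082-20497084, forward strand), the homologue of human NDUFA9, an accessory subunit, has 2 annotated start sites with a summit at each. The stronger summit, at an offset of -322 bp from the upstream start, had rank 31 by signal among the 10650 IDR peaks and ranks 30, 36 and 32 in replicates 1, 2 and 3. Its rank was thus nearly the same in every replicate, and no other annotated start lay within 500 bp of it. The summit at the inner start of ND-39, in an intron of the gene at -80 bp, was far weaker (rank 4585, and 4569, 5262 and 5397 in the replicates) and lay 346 bp from the start of ZnT77C, a zinc transporter gene.

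ND-18 (chrX:19492421-19493337, forward strand) is the homologue of human NDUFS4, an accessory subunit. Its nearest summit was at -181 bp, between genes, with rank 811 in the IDR list and ranks 469, 850 and 3347 in replicates 1, 2 and 3, so replicate 3 was well below the others. A second summit of the same peak region, at -387 bp, was stronger (rank 405, and 251, 473 and 682 in the replicates). That second summit was 23 bp from the start of pcm, the gene of an exoribonuclease on the opposite strand. At ND-ASHI (NDUFB8, chrX:6677262-6679118, reverse strand), the summit lay at -255 bp with rank 882 and ranks 983, 926 and 811 in the replicates. The same summit was 267 bp from the start of Fum1, a fumarase gene of the citric acid cycle, and lay in an intron of that gene. These 3 genes were the only members bound in the 1000 strongest IDR peaks (3.75%, against 4.42% of all genes).

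ND-MWFE (NDUFA1, chr2R:13158666-13160190, forward strand) had a summit at -158 bp of rank 1087, with ranks 882, 1279 and 1188 in the replicates. ND-42 (NDUFA10, chr3R:22027709-22029393, forward strand) had one at -151 bp of rank 1744, with ranks 1770, 1554 and 2310. Both summits lay nearer to a gene on the opposite strand, at 63 bp from TppII for ND-MWFE and 78 bp from Cchl for ND-42. TppII encodes a peptidase, and Cchl the cytochrome c haem lyase, itself a mitochondrial protein. ND-SGDH (NDUFB5, chr3L:12137496-12138584, reverse strand) had its nearest summit at -47 bp, of rank 2216 with ranks 1818, 2365 and 3074 in the replicates.

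The other complex I peaks were weaker. ND-MNLL (NDUFB1, chrX:7893053-7893798, reverse strand) had rank 3793 and ranks 3482, 4574 and 3817 in the replicates, with the summit at -74 bp of a start it shares with CG45089, a gene annotated over the same bases. ND-B22 (NDUFB9, chr2L:13370103-13371110, reverse strand) had rank 7303, 7462, 8872 and 6554 in the same order, with the summit 39 bp inside the 5' UTR. ND-B14.5B (NDUFC2, chr2L:3144953-3145848, reverse strand) and ND-B8 (NDUFA2, chr2L:4454626-4455207, forward strand) stood near the end of the IDR list, at ranks 9826 and 10247. Replicates 1, 2 and 3 each held the summit, at ranks 10867, 12602 and 8424 for ND-B14.5B and 8617, 18135 and 9474 for ND-B8. ND-B14.5B was thus among the strongest 10650 peaks in replicate 3 alone and ND-B8 in replicates 1 and 3.

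All 10 bound complex I genes encode accessory subunits. Of the 27 main accessory subunit genes 10 were bound (37.0%, 19.4 to 57.6), and of the 7 nuclear core subunit genes, which carry the flavin, the iron-sulphur clusters and the quinone site, none was (0 of 7, which allows a share of up to 42.9%). The core genes are ND-75, ND-51, ND-49, ND-30, ND-24, ND-23 and ND-20. This split was made after the values were seen, and the 22.9% of all protein-coding genes lies inside the interval of the accessory genes and below the limit of the core genes, so neither count stands apart from the background. ND-75 came nearest, with an IDR summit 819 bp away. It had a summit within 500 bp among the strongest peaks of replicates 2 and 3, at ranks 10535 and 8316. The other core genes had no summit within 500 bp among the strongest peaks of any replicate, and their nearest IDR summits lay between 3349 bp (ND-51) and 101679 bp (ND-20) away.

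In complex III, which passes electrons from ubiquinol to cytochrome c, UQCR-Q (chr3L:17474761-17476124, forward strand), a small subunit, had a summit 27 bp upstream of one of its start sites and inside the 5' UTR of its longer transcript. Its IDR rank was 6747, with ranks 6636, 8683 and 6117 in the replicates. The testis-type gene UQCR-6.4L (chr3L:16566750-16567300, forward strand) had a summit at -416 bp, close to the limit of 500 bp, with rank 6555 and ranks 7197, 7104 and 6896. Both peaks were in the weaker part of the list, and their ranks repeated. The core protein genes UQCR-C1 and UQCR-C2 had no IDR summit within 500 bp.

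In complex IV, which reduces oxygen to water, COX5B (chr2L:6557800-6559308, forward strand) had the strongest peak. Its summit lay at -213 bp with rank 3538 and ranks 2984, 4079 and 4390, and was 85 bp from IFT52, a gene of intraflagellar transport on the opposite strand. COX7AL2 (chr2L:2192525-2197912, reverse strand) had its summit 320 bp inside its 5' UTR, with IDR rank 7885 but ranks 16539, 8760 and 28653 in the replicates. A stronger IDR summit of rank 3302 lay just outside the window, 519 bp downstream of the same start, and among the strongest peaks of replicates 1 and 3 the nearest summits were 476 and 514 bp from the start. The summit of COX7C (chr2R:10048353-10050066, forward strand), 341 bp downstream of the start in an intron, had rank 10348, with rank 12313 in replicate 1, rank 7641 in replicate 3 and no summit within 100 bp in replicate 2. It was 75 bp from the start of oys, an acyltransferase gene. Ranks at COX7AL2 and COX7C thus repeated poorly, and when an IDR summit had to be matched in both of any 2 replicates, COX5B was the 1 gene of complex IV left.

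In ATP synthase, ATPsynCF6 (chr3R:23355220-23356064, reverse strand), coupling factor 6 of the peripheral stalk, had a summit at -131 bp of rank 3180, with ranks 3192, 3213 and 3960. That summit was 83 bp from Sec13, a gene of vesicle coat and nuclear pore, on the opposite strand. ATPsynD (chr3R:19095000-19096271, forward strand), subunit d of the stalk, had a summit 1 bp upstream of its start, of rank 6604 with ranks 6581, 7218 and 8355. The start of mRpL55, a mitochondrial ribosomal protein gene, lay 94 bp from it. ATPsynC (chr3R:31216145-31219630, reverse strand), which encodes the subunit of the proton-carrying ring, had a summit at -273 bp of rank 8541, with ranks 8046, 6972 and 6964. The catalytic subunit gene ATPsynbeta and the central stalk genes ATPsyngamma and ATPsyndelta were not bound, with IDR summits 4190, 8216 and 1699 bp away.

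**Figure D2:**
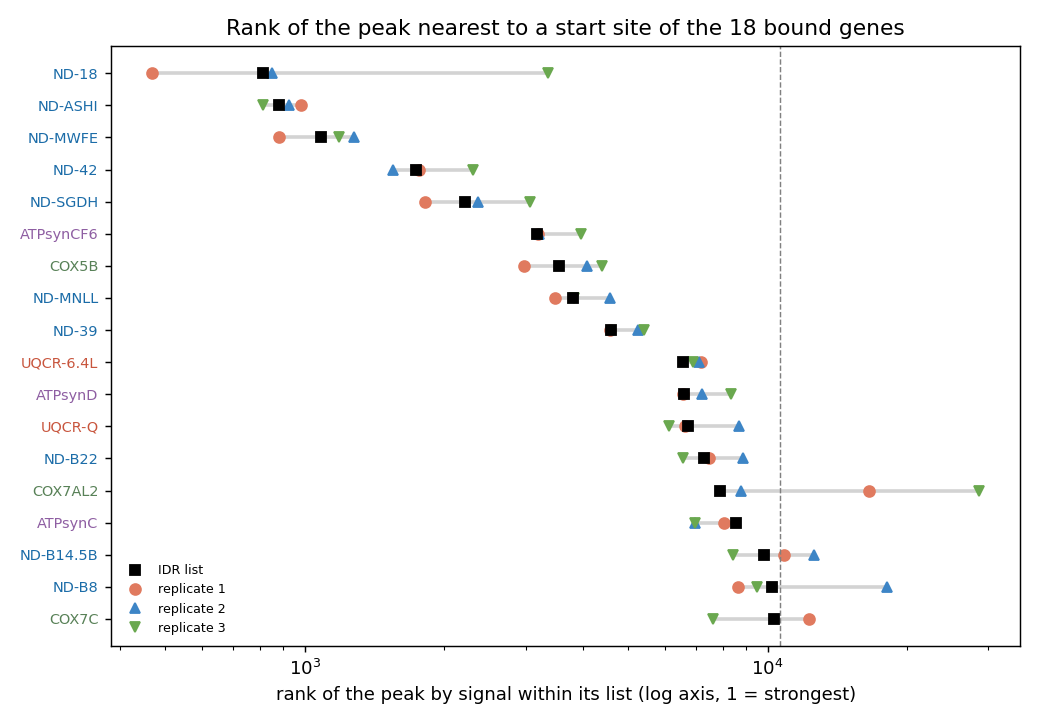
Rank by signal within each list (horizontal log axis, 1 is the strongest) of the IDR peak nearest to a start site of the 18 bound genes, and of the replicate summits within 100 bp of it. Squares are the IDR list, coloured points the replicates, the dashed line the 10650th rank, and label colours the complexes. The 5 best ranked genes are all of complex I, and replicate ranks run from 469 to 3347 at ND-18 and from 8760 to 28653 at COX7AL2.

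By rank, the peaks at the 18 genes stood somewhat lower in the list than those of bound genes in general, with no test of the difference. The median rank of the nearest summit was 5570 of 10650, against 4036 over the 3196 bound protein-coding genes. By the strongest summit in the window, it was 5174 against 3409. Above the median signal of the list stood 9 of 18 (50%), against 61.5% of bound protein-coding genes by the nearest summit. In replicates 1, 2 and 3 the median rank at bound members was 3482, 6117 and 4855 (SD 1318, n = 3), over 21, 16 and 24 members. No such medians were taken for all bound genes, so whether the difference exceeds the spread between replicates cannot be told. Of the 18, 14 were also bound in the strongest peaks of all 3 replicates (17.5% of the 80 genes, against 19.8% of all genes), 2 in 2 replicates and 2 in 1.

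Summits lay mostly just upstream of the start. Of the 18 nearest summits 15 were upstream (83.3%, against 85.6% over bound protein-coding genes), with a median offset of -98.5 bp against -127 bp. The 3 downstream summits were those of ND-B22, COX7AL2 and COX7C. Of the 18 summits 9 lay between genes and the others in introns or 5' UTRs.

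Many of these summits could not be given to 1 gene. At 13 of 18 bound genes another annotated start lay within 500 bp of the summit (72.2%, against 46.5% of bound protein-coding genes), and at 6 of them the neighbour's start was the nearer. Those 6 were ND-MWFE (TppII), ND-42 (Cchl), ATPsynCF6 (Sec13), COX5B (IFT52), ND-B8 (Secp43) and COX7C (oys), all paired with a gene on the opposite strand. When a summit was counted only for the gene with the nearest start, 12 of the 80 genes were bound (15%, against 18.7% of all genes). The annotation alone also differed. A start of another gene lay within 500 bp of the start sites of 14 of 18 bound members (77.8%) and of 28 of 62 other members (45.2%), while over all protein-coding genes the shares were 46.9% and 30.7%. Both comparisons run the same way, and the part of crowded starts in the calls was not tested. The neighbours at 3 of the 13 genes also serve mitochondria, namely Fum1, Cchl and mRpL55. How often this holds for neighbours of other bound genes was not counted, so nothing is read from it.

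**Figure D3:**
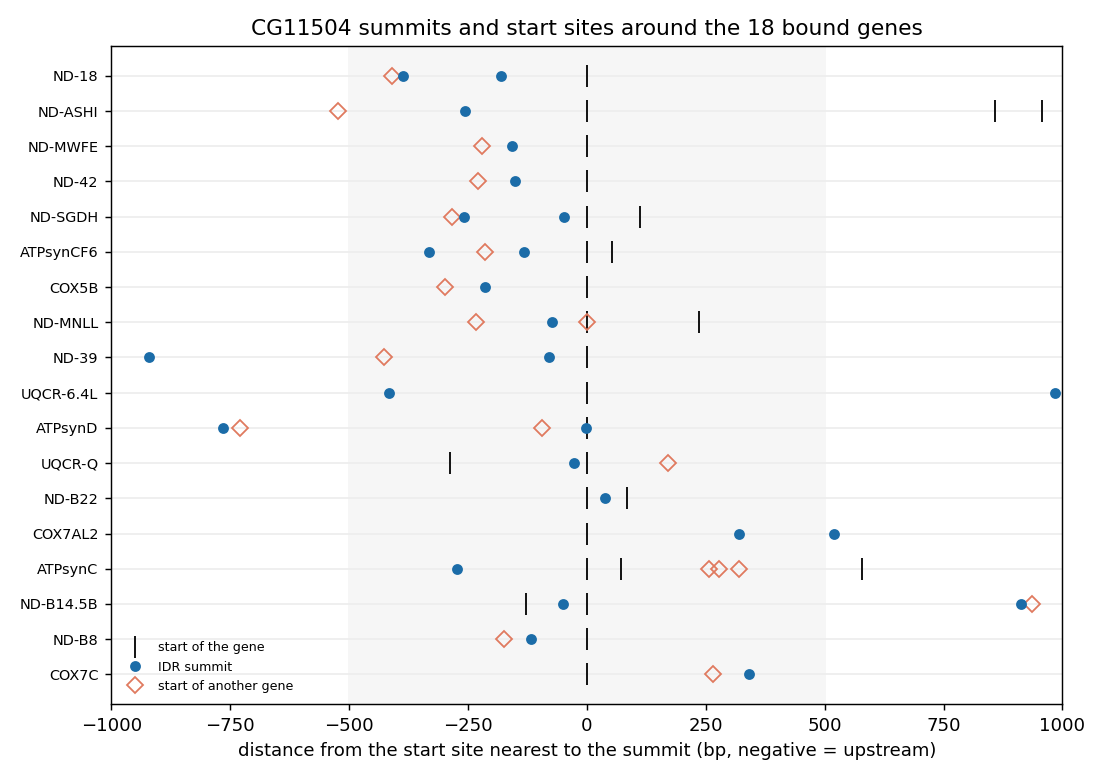
IDR summits (filled circles), start sites of the gene itself (black ticks) and starts of other genes (open diamonds) around the 18 bound genes, as distance in bp from the start nearest to the summit (horizontal axis, negative is upstream). The grey band is the window of 500 bp on each side, and the stronger summit of ND-39, at its other start, lies off the axis. At ND-18, ND-MWFE, ND-42, ATPsynCF6 and COX5B a summit lies between 2 starts that point away from each other. The same layout is seen at ATPsynD, ND-B8, ND-MNLL, ND-SGDH, ND-ASHI and ND-39.

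The testis-type duplicates were compared with their main genes. Of 21 genes with a testis-type symbol 2 were bound (9.52%, 1.17 to 30.4), UQCR-6.4L and COX7AL2, and of the 59 main genes 16 (27.1%, 16.4 to 40.3). In the replicates the means were 7.94% ± 2.75 and 31.6% ± 7.64 (SD, n = 3). Values of replicates 1, 2 and 3 were 9.52%, 9.52% and 4.76% for testis-type genes and 32.2%, 23.7% and 39.0% for main genes. The share of testis-type genes was thus the lower in each replicate, although the intervals over genes overlapped. The replicates score the same genes, so their SD covers how peak calls repeat and not the small number of genes. With background shares of 22.9% in the IDR list and 23.2% to 25.1% in the replicates, testis-type genes were below and main genes near or above the level of all genes. In the IDR list the intervals of both groups include the 22.9% of all genes, so neither count stands apart from the background. Whether these counts differ was not tested. Start sites of other genes lay within 500 bp of 3 of the 21 testis-type genes (14.3%) and 39 of the 59 main genes (66.1%), and 19 of the 21 had 1 start site, against 27 of 59 main genes. The part of these features in the lower count was not tested.

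By symbol 17 pairs could be formed with 15 main genes. In no pair were both partners bound (0 of 17, which allows a share of up to 17.6%). With 22.9% of all protein-coding genes bound, few pairs would have both partners bound in any case, and nothing is read from this count. The main gene alone was bound in 3, namely ATPsynCF6 with ATPsynCF6L, COX5B with COX5BL and COX7C with COX7CL, and the testis-type gene alone in 2, UQCR-6.4L with UQCR-6.4 and COX7AL2 with COX7A. In 12 pairs neither was bound. These were ATPsynG with ATPsynGL, ATPsynbeta with ATPsynbetaL, ND-20 with ND-20L, ND-24 with ND-24L, ND-49 with ND-49L, ND-51 with ND-51L1 and ND-51L2, ND-B14.5A with ND-B14.5AL, UQCR-11 with UQCR-11L, UQCR-14 with UQCR-14L, COX4 with COX4L and COX7A with COX7AL. Within the pairs, counting by the partner nearer to an IDR summit, the main gene was nearer in 11 of 17. The 17 are not independent. ND-51 counts with both ND-51L1 and ND-51L2. COX5B, COX7C and COX7A have the same nearest summit as COX5BL, COX7CL and COX7AL. ND-24 was nearer only by 4191 against 4206 bp. Over the paired genes alone the contrast was smaller, with 3 of 15 main genes (20%) and 2 of 17 testis-type genes (11.8%) bound, against 22.9% of all genes. At the 3 bound main genes the nearest start was that of the neighbour on the opposite strand, so none of them counted when a summit was given only to the nearest start. COX4L missed the window narrowly, with an IDR summit 525 bp away. The 4 testis-type symbols without a main partner in the rule, COX6AL, COX6AL2, COX6CL and ATPsynepsilonL, were not bound. Main genes with symbols outside the rule and germ line genes without an L symbol could not be paired, so the contrast covers only pairs found by symbol. Among genes outside the rule, given below, Cyt-c-p and the germ line gene Cyt-c-d were both bound. SdhB was bound and SdhBL was not, and neither SdhA nor SdhAL was bound.

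**Figure D4:**
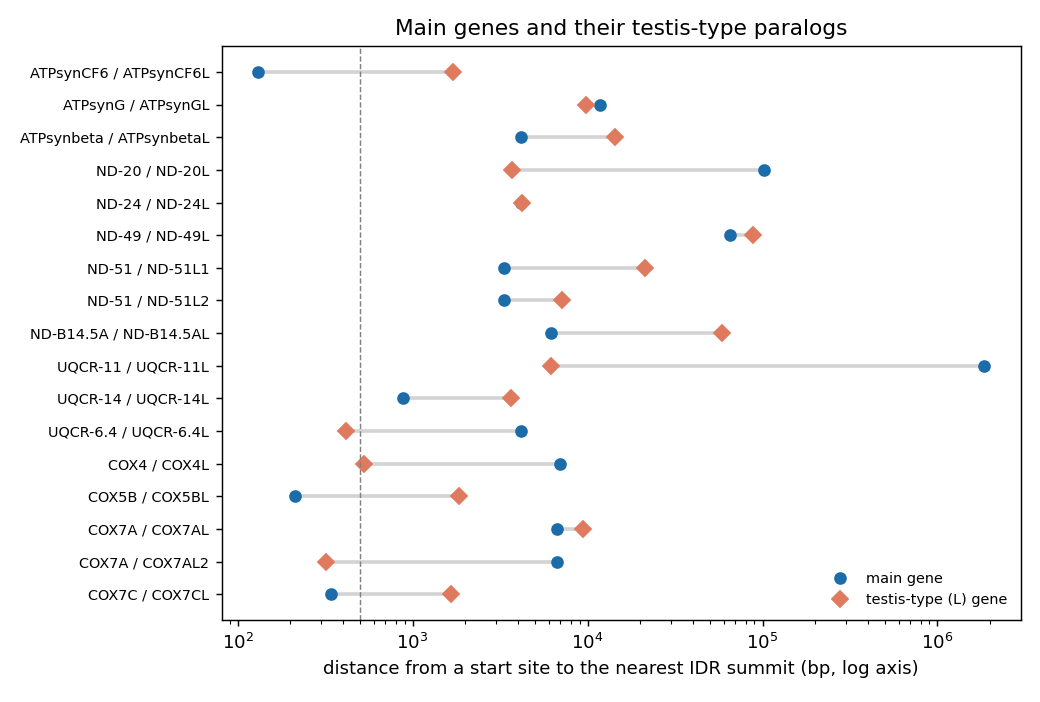
Distance from a start site to the nearest IDR summit (horizontal log axis, bp) for the main gene (circles) and the testis-type gene (diamonds) of each of the 17 pairs, with the dashed line at 500 bp. Points left of the line are bound genes. Both members of a pair never lie left of it, COX4L stands just to its right at 525 bp, and the points of ND-24 and ND-24L (4191 and 4206 bp) overlap.

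ATPsynCF6 and ATPsynCF6L are shown because the main gene had the strongest peak of any main gene in a pair. The 200 bases before each gene's start are given 5′ to 3′ on the gene's strand (dm6, reverse strand in both), with capitals marking matches to any of the motifs named in the next paragraph. The stretch before ATPsynCF6 is chr3R:23356065-23356264 and holds the summit. The stretch before ATPsynCF6L is chr3L:5012134-5012333, and its nearest IDR summit lay 1705 bp from the start. The pooled list held a weak summit 432 bp from that start, of rank 26905.
ATPsynCF6: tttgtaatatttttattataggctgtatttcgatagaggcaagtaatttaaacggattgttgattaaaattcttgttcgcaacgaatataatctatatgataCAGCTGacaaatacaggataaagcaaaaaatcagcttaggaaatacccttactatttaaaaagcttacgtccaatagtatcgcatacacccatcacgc
ATPsynCF6L: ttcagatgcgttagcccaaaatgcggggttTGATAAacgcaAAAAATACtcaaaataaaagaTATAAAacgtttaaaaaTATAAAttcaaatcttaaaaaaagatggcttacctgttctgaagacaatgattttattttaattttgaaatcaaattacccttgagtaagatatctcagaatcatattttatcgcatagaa
Both stretches are poor in G and C, at 31.5% and 27%. The main gene's stretch holds CAGCTG, and that of the testis-type gene holds 2 TATAAA words, GTATTTTT on the reverse strand and a GATA word. In the longer window of the next paragraph ATPsynCF6 also holds TATAAA.

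Words of known promoter factors were counted from 250 bp before to 50 bp after each gene's start, on both strands, as letters and not as sites. TATAAA, the TATA box word, was in 11 of 18 bound genes, 32 of 62 others and 45.8% of all protein-coding genes. GGTCACAC, known as a motif bound by M1BP, was in 5 of 18 bound genes (27.8%), namely ATPsynC, ATPsynD, ND-18, ND-MWFE and COX5B. It was in 10 of 62 other members (16.1%), 11.5% of bound protein-coding genes and 7.70% of all. TATCGATA, the word of DREF, was in 1 of 18, 8 of 62 and 9.36% of all genes. CAGCTG was in 4 of 18, 15 of 62 and 17.7% of all genes, GTATTTTT in 1, 9 and 7.39%, and TAATTA in 3, 16 and 20.4%. CACGTG was in 2 of 18, 2 of 62 and 4.20% of all genes. The GATA factor words, which are AGATAA or AGATAG and likewise TGATAA or TGATAG, were in 9, 22 and 46.7%. GCATGCGC, part of the word of nuclear respiratory factor 1 in mammals, and the ETS word CCGGAAG were in none of the 80 genes and in 1.05% and 1.09% of all genes. The shares of some words turned or drew closer within 100 bp on each side of the start. There TATAAA was in 27.8% of bound and 30.6% of other members, GATA words in 22.2% and 24.2%, TATCGATA in 11.1% and 6.45%, and GGTCACAC in 16.7% and 14.5%, while CAGCTG drew apart, at 11.1% and 24.2%.

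Some words had unlike counts in main and testis-type genes and others did not. GGTCACAC was in 14 of 59 main genes (23.7%) and 1 of 21 testis-type genes (4.76%), and CAGCTG in 18 (30.5%) and 1. TATCGATA was in 9 main genes (15.3%) and no testis-type gene (0 of 21, with 9.36% of all genes as above), and TATAAA in 37 (62.7%) and 6 (28.6%). GATA words went the other way, at 20 main (33.9%) and 11 testis-type genes (52.4%). TAATTA was in 23.7% of main and 23.8% of testis-type genes, and GTATTTTT in 13.6% and 9.52%. Within 100 bp on each side of the start, TATAAA was in 19 main (32.2%) and 5 testis-type genes (23.8%), closer than in the longer window. GATA words drew further apart there, at 15.3% of main and 47.6% of testis-type genes. GGTCACAC (20.3% of main genes), CAGCTG (28.8%), TATCGATA (10.2%), TAATTA (11.9%) and GTATTTTT (10.2%) were in no testis-type gene in that window. These are counts of words, with no test of a difference.

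Of the 62 genes without an IDR summit within 500 bp, 46 had none in the pooled list or any full replicate list either, and 38 had no IDR summit within 5000 bp. Neither count was made over all protein-coding genes, so nothing is read from them. The median distance to the nearest IDR summit was 7071 bp for these 62 and 4190.5 bp for all 80 genes, against 5684 bp for all protein-coding genes. Just outside the window were COX4L (525 bp), ATPsynE (807 bp), ND-75 (819 bp) and UQCR-14 (886 bp), and with a window of 1000 bp these 4 made the count 22 of 80 (27.5%, against 26.7% of all genes). UQCR-11 and ND-AGGG, both on 3L, were farthest, at 1848971 and 1704516 bp. Both had the same nearest summit, as had ND-MLRQ (67588 bp), so these distances belong to a stretch of 3L without IDR summits. A pooled summit within 500 bp was found at ND-13A (rank 12093, present in all 3 full replicate lists), ATPsynCF6L and ND-B16.6 (rank 27159).

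Some genes had strong peaks in part of the replicates that are missing from the pooled and IDR lists. COX5A, the gene of another complex IV subunit, had a summit at rank 2047 in replicate 1, 109 bp from its start, and at rank 2710 in replicate 3, 118 bp from it, while the nearest pooled summit was 6132 bp away. ATPsynB had ranks 4092 and 4510 in replicates 1 and 3, and COX7B 3316 and 4904, with pooled summits 3964 and 1773 bp away. Neither gene, nor COX5A, was within 500 bp of a summit in the full list of replicate 2. With ND-75, these were 4 of 80 genes (5%) bound in the strongest peaks of 2 replicates without an IDR summit, against 2.32% of all genes, and the 4 also lacked a pooled summit, against 1.96%. A further 5 members (6.25%, against 4.07% of all genes) were bound in the strongest peaks of 1 replicate alone without an IDR summit. They were ATPsynE (rank 2411), UQCR-14 (6306) and UQCR-C2 (5910) in replicate 3, and ND-AGGG (7324) and COX4 (5879) in replicate 1. Peaks of this kind at the 80 genes were thus from replicates 1 and 3 in all cases but ND-75.

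The remaining unbound main genes, none of which had a summit within 500 bp in the strongest peaks of any replicate, are given by complex. In complex I they were ND-13A, ND-13B, ND-15, ND-19, ND-20, ND-23, ND-24, ND-30, ND-49, ND-51, ND-ACP, ND-B12, ND-B14, ND-B14.5A, ND-B14.7, ND-B15, ND-B16.6, ND-B17, ND-B17.2, ND-B18, ND-MLRQ and ND-PDSW. In complexes III and IV they were UQCR-6.4, UQCR-11, UQCR-C1, COX6B, COX7A and COX8. In ATP synthase they were ATPsynF, ATPsynG, ATPsynO, ATPsynbeta, ATPsyndelta and ATPsyngamma. By chromosome arm, 5 of 16 members on 2L were bound (31.2%, against 23.7% of all protein-coding genes there), 2 of 15 on 2R (13.3% against 20.1%) and 4 of 19 on 3L (21.1% against 24.8%). The counts were 4 of 16 on 3R (25% against 22.7%), 0 of 2 on chromosome 4 (against 6.25%) and 3 of 12 on X (25% against 24.3%). With so few members on an arm, nothing is read from these shares.

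Genes outside the rule were counted on further lists, from other subunits to the citric acid cycle and regulators of mitochondrial biogenesis. Of the 64 that matched the annotation 24 were bound (37.5%, against 22.9% of all genes). Subunits of complexes III to V and cytochrome c genes were bound at 6 of 10. RFeSP (the Rieske protein of complex III) had rank 5915, blw (the alpha subunit of ATP synthase) 2121, cype and levy (of complex IV) 3322 and 8411, and Cyt-c-p (the somatic cytochrome c) 6006. Cyt-c-d, the cytochrome c gene used in the male germ line, had the strongest of these peaks, at rank 323, and that summit was 127 bp from CG31808. In complex II, SdhB (rank 4066) and SdhC (rank 4267) were bound of 6 genes, and the testis-type SdhAL and SdhBL were not. Citric acid cycle genes were bound at 7 of 19, namely Idh3g (rank 393), Fum1 (882), Ogdh (6266), Fum3 (7304), kdn (8639), Mdh2 (10455) and muc (10474). Carriers were bound at 2 of 5, Mpcp2 (phosphate, 4649) and porin (the outer membrane channel, 6643). Assembly factors were bound at 2 of 12, CIA30 (286) and Ttc19 (1796). Genes of mitochondrial biogenesis and mitochondrial DNA were bound at 5 of 12, namely mtSSB (1634), Myc (2494), mtTFB1 (6816), ewg (7806) and Ets97D (10234). At SdhC, Cyt-c-d, CIA30, Fum1 and Mdh2 the neighbour's start was nearer to the summit. At mtTFB1 and Myc another gene's start was equally near. Fum1 was called through the summit of ND-ASHI, which is also counted among the 80 genes. Mdh2 was bound in the strongest peaks of 1 replicate only. No share by the nearest start was taken for these lists. The lists are short, and no test was run on them.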

How the data were processed

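ChIP-seq peak lists of 3 replicates, of the replicates pooled, and of peaks thresholded on IDR were used as the authors deposited them, in dm6 coordinates. Per the text files deposited beside them, peaks were called against 1 control alignment. The names of aligner and caller were not given in the sources used here. Sequencing depth is unknown. The score that the authors deposited for each peak (its signal) has no stated scale and served only to rank peaks within a list. The −log10 q-value that the authors deposited was not used. Intervals and limits for a count of 0 (3 counts of the total) cover counting error only, over genes.

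Start sites came from all transcripts of Ensembl release 115 on 6 arms, and bases from the NCBI genome of the same assembly. A summit is the peak start plus the deposited offset, written from 1. Replicates were compared over their 10650 strongest peaks, and summits within 100 bp were matched. Named were all bound members, those with a summit 500 to 1000 bp away and both partners of every pair. The members and lists were chosen with earlier results of these data known. Of 71 symbols on the further lists of genes outside the rule, 7 were not matched. All samples form 1 group, so no test was run, and other windows, peak thresholds, lists and start sites were tried as alternatives. The window call was checked on simulated data. Python 3.11.15, numpy 2.4.6, pandas 2.3.3, scipy 1.17.1 and matplotlib 3.10.9 were used.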

Additional observations from a re-analysis of the deposited data

How the results depend on the processing

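The count of 18 bound genes kept within 1.5 times of its value with windows of 250 bp (13) and 1000 bp (22). The same held with 1 start site per gene (18) and in the pooled list (21). It also held in each replicate (16 to 24) and without each replicate (14 to 15). Shares of members and of all genes were 16.2% and 18.1% with 250 bp, and 22.5% and 20.7% with 1 start site. Without a replicate they were 17.5% to 18.8% of members and 19.4% to 20.0% of all genes. The count was 9 among IDR peaks above the median signal (11.2%, against 15.8% of all genes) and 3 among the 1000 strongest, where the count over all protein-coding genes was 616. For complex I the latter count was 3, and for complexes III, IV and ATP synthase 0 each. Above the median signal complex III had 0, complex IV 1 and ATP synthase 1. With 250 bp complex III had 1, complex IV 1 and the testis-type genes of pairs 0. With the nearest start alone complex IV had 1 and the main genes of pairs 0. In the pairs the 1000 strongest peaks left 0 main and 0 testis-type genes, and peaks above the median signal 0 testis-type genes. The paired testis-type count was 3 in the pooled list and with 1000 bp.

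In single replicates complex III reached 4 and ATP synthase 5 in replicate 3, and complex IV was 5 in replicate 1 and 2 in replicate 2. Paired main genes were 2 in replicate 2 and paired testis-type genes 1 in replicate 3. Without replicates 1, 2 or 3 in turn (IDR summits matched in both others), complex IV was 1 in each case, complex I 8 to 9, paired main genes 2 and paired testis-type genes 1. Complex III and ATP synthase stayed at 2 and 3. The median offset was -56.5 bp in replicate 3. The strongest summit in the window, an alternative chosen after seeing the data, gave a median rank of 5174. Within 100 bp on each side of starts, TATAAA was in 5 of 18 bound and 19 of 62 other members, GATA words in 4 and 15, TATCGATA in 2 and 4, and GGTCACAC in 3 and 9, so the order of bound and other members turned for the first 3 of these words. No paired analysis was possible because there is only 1 group. The small complexes limit what their counts can show.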
